A study of Homo sapiens with 18 samples.

Results

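The RNA-Seq counts of 8 genes were followed here: HSPA5, which encodes BiP, the HSP70 chaperone of the endoplasmic reticulum (ER) lumen, HSP90B1, which encodes GRP94, the HSP90 chaperone of the same compartment, and 6 genes whose products work with or resemble BiP (HYOU1, SIL1, FICD, SDF2L1, SDF2 and HSPA13). The genes were chosen by name, as the ER HSP70 and HSP90 chaperones with their cofactors, and the rule uses no measured value. Earlier results of these data were known when they were chosen. All 8 were among the 25435 gene rows of the count table, and all 8 passed the filter on low counts in every comparison. The cells were HEK293doxERN2, a HEK293 (human embryonic kidney) line that carries a doxycycline-inducible transgene for FLAG-tagged human ERN2 (IRE1β), the epithelial form of the ER stress sensor IRE1. Cells were kept for 24 hours without doxycycline or with 10 or 100 ng/mL doxycycline, termed no, low and high ERN2, and in each case received the vehicle DMSO or 200 nM thapsigargin, an inhibitor of the pump that fills the ER with calcium, for 3 hours. Each of the 6 groups held 3 libraries, 18 in all. Every library came from the transgenic line, so that a sample with doxycycline but without the transgene was not analysed here, and an effect of doxycycline itself and of ERN2 cannot be told apart. The transgene was expressed in a kidney-derived line and not in the epithelium where ERN2 normally acts.

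BiP binds unfolded stretches of newly made proteins and releases them in a cycle driven by ATP. J-domain proteins start the cycle, and the nucleotide exchange factors HYOU1 (GRP170) and SIL1 (BAP) open the nucleotide pocket of BiP again. FICD attaches AMP to BiP and removes it, SDF2L1 and SDF2 join BiP and J-domain proteins in the folding of secretory proteins, and HSPA13 (STCH) is an HSP70-like ATPase of the ER without the substrate-binding domain of BiP. BiP also binds the lumenal side of the stress sensors IRE1, PERK and ATF6. When unfolded proteins accumulate, ATF6 and the spliced form of XBP1 made through IRE1 raise the transcription of ER chaperone genes through ER stress response elements in their promoters.

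The 250 bases before the RefSeq transcript start (GRCh38.p14) were therefore searched on both strands for 2 such elements, spelled ERSE (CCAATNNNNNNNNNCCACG) and ERSE-II (ATTGGNCCACG). An exact ERSE was present in the windows of HSPA5, HSP90B1 and FICD, and an exact ERSE-II in those of HYOU1 and SDF2L1. Neither was found in the windows of SIL1, HSPA13 or either of the 2 windows of SDF2, which says only that these letters were not in these windows. Over 35116 windows of all genes, 0.0740% held the ERSE and 0.0513% the ERSE-II. The 5 windows with a match are shown because they belong to the 5 genes that thapsigargin raised in uninduced cells. They read 5′ to 3′ on the strand of the gene, with the matches, in either orientation, in capitals.
HSPA5 (chr9:125241344-125241593, - strand): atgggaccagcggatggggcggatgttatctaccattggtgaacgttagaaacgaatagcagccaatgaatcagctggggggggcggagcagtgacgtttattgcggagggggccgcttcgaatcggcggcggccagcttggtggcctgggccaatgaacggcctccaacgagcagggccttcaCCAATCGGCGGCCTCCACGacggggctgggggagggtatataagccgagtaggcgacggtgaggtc
HSP90B1 (chr12:103930160-103930409, + strand): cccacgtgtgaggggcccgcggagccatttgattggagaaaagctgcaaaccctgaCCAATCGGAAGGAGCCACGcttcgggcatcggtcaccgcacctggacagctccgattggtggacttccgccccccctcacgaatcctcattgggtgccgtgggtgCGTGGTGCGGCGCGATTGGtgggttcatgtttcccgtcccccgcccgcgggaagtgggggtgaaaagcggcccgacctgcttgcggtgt
FICD (chr12:108515027-108515276, + strand): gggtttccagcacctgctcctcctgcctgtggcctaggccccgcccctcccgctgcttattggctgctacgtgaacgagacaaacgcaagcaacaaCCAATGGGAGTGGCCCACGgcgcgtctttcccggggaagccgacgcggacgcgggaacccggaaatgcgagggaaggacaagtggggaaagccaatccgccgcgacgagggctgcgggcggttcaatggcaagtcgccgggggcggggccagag
HYOU1 (chr11:119057206-119057455, - strand): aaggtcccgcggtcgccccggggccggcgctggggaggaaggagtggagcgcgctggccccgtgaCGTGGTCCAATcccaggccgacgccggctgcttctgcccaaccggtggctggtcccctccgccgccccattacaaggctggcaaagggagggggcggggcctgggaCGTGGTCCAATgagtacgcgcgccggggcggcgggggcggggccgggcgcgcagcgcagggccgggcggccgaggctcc
SDF2L1 (chr22:21642052-21642301, + strand): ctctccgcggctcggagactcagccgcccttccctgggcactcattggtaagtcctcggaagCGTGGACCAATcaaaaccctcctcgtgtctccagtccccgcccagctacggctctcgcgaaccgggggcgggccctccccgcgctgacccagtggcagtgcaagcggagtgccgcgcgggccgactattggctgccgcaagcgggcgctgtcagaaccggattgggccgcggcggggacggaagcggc
Counted in bases from the transcript start, the HSPA5 match lay at -66 to -48, and the FICD match lay farther away, at -154 to -136. HSP90B1 had 1 match at -194 to -176 and a second, in the opposite orientation, at -89 to -71. The ERSE-II of HYOU1 occurred at -185 to -175 and at -79 to -69, and that of SDF2L1 at -188 to -178, all of them in the reverse orientation. A match to the core of the XBP1-binding UPRE (TGACGTG, in 1.68% of all windows) was found only in HYOU1, at -188 to -182, where it overlapped the first ERSE-II. The letters TGATGNAA, a core of sites bound by ATF4 and C/EBP factors, occurred in 3.14% of all windows and in none of the 9 windows of the 8 genes.

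**Figure D1:**
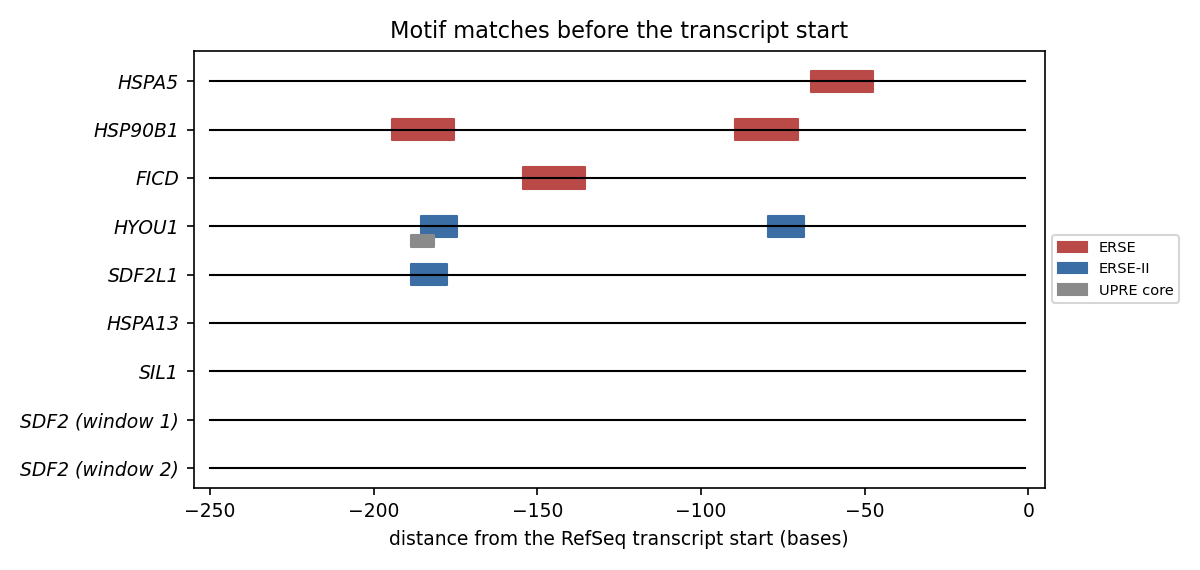
Position of each exact motif match (coloured boxes) in the 250 bases before the RefSeq transcript start of the 8 genes; the horizontal axis is the distance from the start in bases. ERSE matches are present in HSPA5, HSP90B1 and FICD, ERSE-II matches in HYOU1 and SDF2L1, and neither in HSPA13, SIL1 or the 2 windows of SDF2.

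The libraries held 14876416 to 24652240 counted reads. ERN2 checked the labels: its mean level was 7.92 CPM (the reads of a gene scaled to the TMM-adjusted library total) without doxycycline, 35.7 CPM at 10 ng/mL and 266 CPM at 100 ng/mL in vehicle (log2 fold change against no doxycycline 2.17 and 5.07, adjusted p = 0.00575 and 6.49e-09, edgeR quasi-likelihood test). In thapsigargin ERN2 stood at 10.5 to 14.4, 32.3 to 111 and 167 to 267 CPM at 0, 10 and 100 ng/mL, so that the doses did not overlap, and 100 against 0 ng/mL was called (4.08, adjusted p = 5.11e-07), whereas 10 against 0 ng/mL was not (2.42, adjusted p = 0.292) unless the replicate number was a block (2.27, adjusted p = 4.15e-07). The extraction protocol in the labels names colon crypts, whereas the cell line is HEK293. All 6 HEK293 markers were detected in every library (VIM at 1358 to 2360 CPM), while 8 of 9 colon epithelial markers stayed below 1 CPM in every library, PHGR1 and TFF3 were at 0 throughout, and CDX2 was at 3.21 to 8.94 CPM. The HEK293 markers summed to 2012 to 2634 CPM over the vehicle libraries and to 1567 to 2171 CPM over the thapsigargin libraries, and their part in the results was not tested. Replicates of 1 group differed by 7.33 to 63.9 times the counting noise (chi-square per degree of freedom), most in the high-ERN2 thapsigargin group, whose replicate 1 stood 37.4 and 63.9 times apart from replicates 2 and 3, which differed from each other by 13.0 times. Counts and calls that rest on that group are given with and without this library where it changed them.

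In uninduced, unstressed cells the 8 genes spanned a wide range of levels. Scaled by the exonic length of each gene, HSP90B1 was highest at 290 ± 25.5 CPM per kb (SD, n = 3), followed by HSPA5 at 131 ± 8.74 CPM per kb and HYOU1 at 49.6 ± 2.35 CPM per kb. SDF2L1 (19.9 ± 2.56 CPM per kb) and HSPA13 (17.5 ± 2.45 CPM per kb) came next and did not differ beyond their spread. SDF2 stood at 10.1 ± 0.963 CPM per kb, the exchange factor SIL1 at 4.16 ± 0.116 CPM per kb and FICD, the only enzyme of the group that modifies BiP, lowest at 1.16 ± 0.0600 CPM per kb. FICD therefore rested on few reads, 89 to 92 in each uninduced vehicle library, against 9293 to 9376 reads of HSPA5. Together the 8 genes took 0.236 ± 0.00969% (SD, n = 3) of all counted reads in these cells, of which HSP90B1 made up 0.134% and HSPA5 0.0502%.

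Thapsigargin raised the RNA of BiP and of most of its named partners in uninduced cells. HSPA5 (chr9:125234853-125241330, minus strand, GENCODE 29 on GRCh38) stood at 476, 511 and 544 CPM in the vehicle libraries and at 3148, 4829 and 3085 CPM after thapsigargin. SDF2L1 (chr22:21642261-21644298, plus strand) went from 23.1, 18.6 and 23.8 CPM to 131, 162 and 159 CPM. FICD (chr12:108515185-108525837, plus strand) went from 4.68, 5.06 and 5.16 CPM to 29.6, 37.0 and 30.1 CPM. For all of these every thapsigargin library lay far above every vehicle library. The fold changes were 7.29 for HSPA5, 6.95 for SDF2L1 and 6.54 for FICD (log2 2.87 ± 0.17, 2.80 ± 0.13 and 2.71 ± 0.15 with SE, adjusted p = 2.33e-07, 3.55e-08 and 1.46e-07). In bulk RNA, a change in the number of responding cells and a change in RNA per cell cannot be told apart.

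The exchange factors differed from each other. HYOU1 (chr11:119044189-119057202, minus strand) rose 4.30-fold, from 368, 374 and 402 CPM to 1364, 2060 and 1450 CPM (log2 2.10 ± 0.15, adjusted p = 1.14e-06). SIL1 (chr5:138946720-139293557, minus strand), which opens BiP in the same step, had 17.2, 16.3 and 16.5 CPM in vehicle and 18.3, 20.9 and 19.2 CPM in thapsigargin, a log2 difference of 0.24 ± 0.13 that did not pass the test (adjusted p = 0.197) although the groups did not overlap. Complete separation of 3 against 3 libraries has a p of 0.10 in an exact test. The share of all genes that separated in this way was not examined, here or below. HSP90B1 (chr12:103930107-103953645, plus strand) started from the highest level and rose 2.15-fold, from 1262, 1493 and 1324 CPM to 2715, 3622 and 2337 CPM (log2 1.10 ± 0.15, adjusted p = 0.000263). In all, 5 of the 8 genes were called higher at an adjusted p under 0.01, against 6.45% of the 14397 genes tested, and their median log2 fold change over all 8 was 1.60, against -0.0066 over all genes. These 5 calls held when any 1 library was left out.

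The remaining genes lacked a call. HSPA13 (chr21:14371115-14383484, minus strand) measured 69.2, 85.0 and 65.7 CPM in vehicle and 114, 191 and 81.6 CPM in thapsigargin, so that the groups overlapped (log2 0.83 ± 0.23, adjusted p = 0.0212). Without replicate 3 of the thapsigargin group, its lowest, the value was 1.08 with an adjusted p of 0.0001. SDF2 (chr17:28648356-28662189, minus strand), the constitutive relative of SDF2L1, was lower in every thapsigargin library (24.2, 24.4 and 28.7 CPM) than in any vehicle library (33.3, 30.7 and 37.1 CPM), with a log2 difference of -0.37 ± 0.13 (adjusted p = 0.0487). After thapsigargin the 8 genes took 0.860 ± 0.198% of all reads, of which HSPA5 alone made up 0.370%. Per kb of exon, BiP RNA then stood above GRP94 RNA, at 944 ± 253 against 616 ± 141 CPM per kb.

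**Figure D2:**
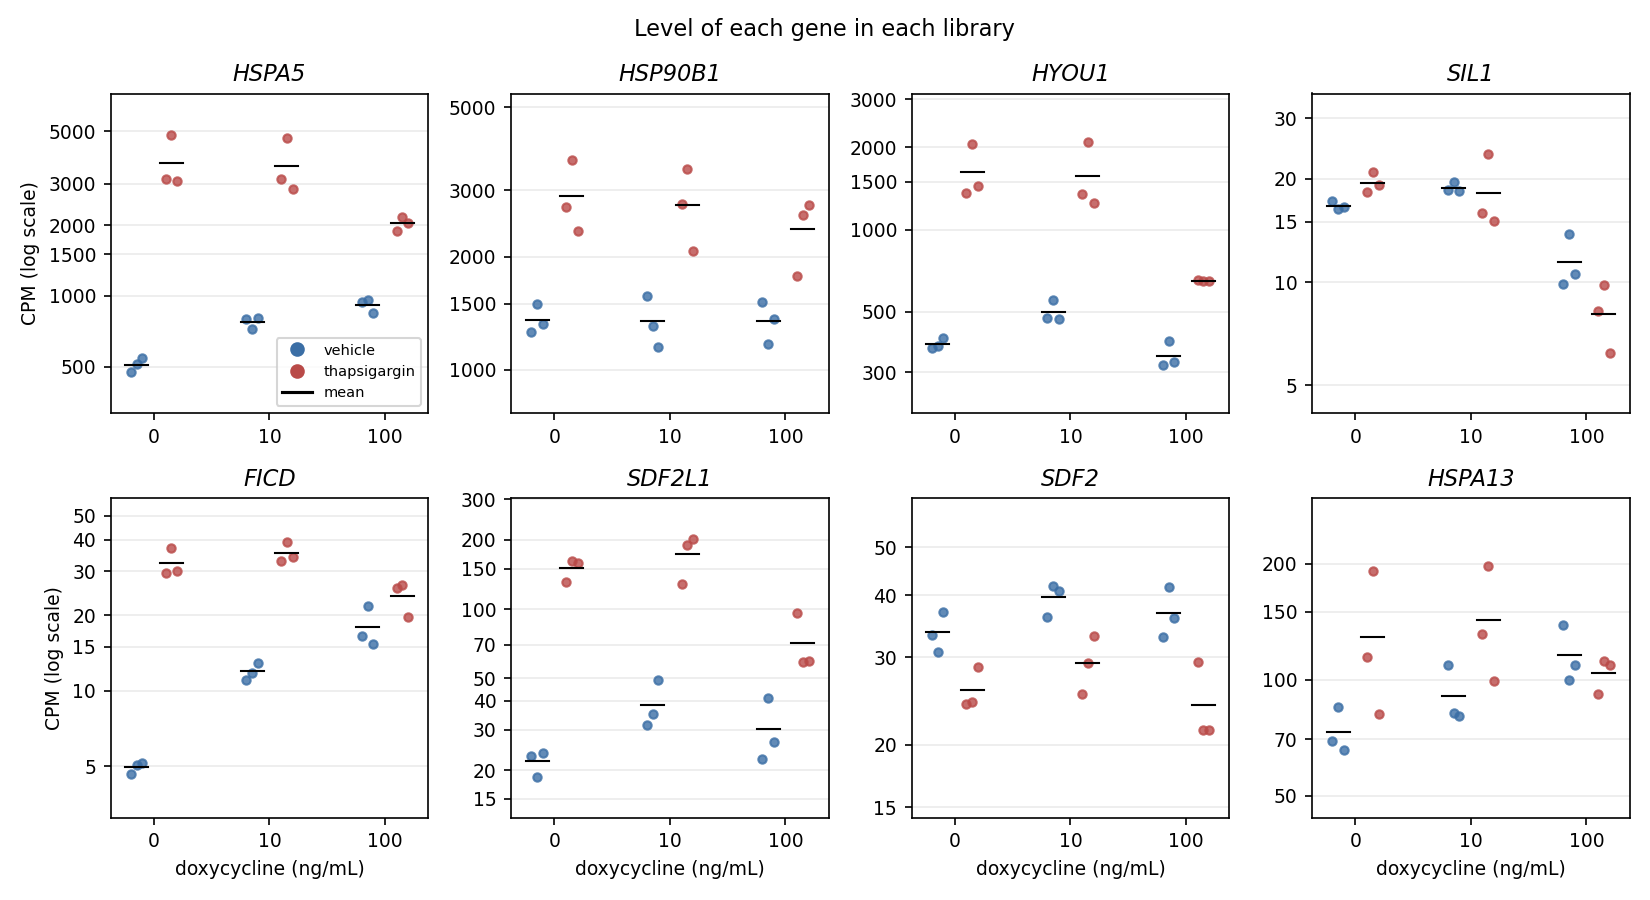
CPM (TMM-scaled, log axis) of each gene in each of the 18 libraries by doxycycline dose, with vehicle libraries in blue, thapsigargin libraries in red and black bars for the mean of 3. HSPA5, SDF2L1, FICD and HYOU1 separate widely by thapsigargin at 0 ng/mL, FICD in vehicle is at 4.68 to 5.16 CPM at 0 ng/mL and at 15.4 to 21.7 CPM at 100 ng/mL, and HYOU1 after thapsigargin is at 1364 to 2060 CPM at 0 ng/mL and at 648 to 654 CPM at 100 ng/mL.

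With 10 ng/mL doxycycline, thapsigargin again raised HSPA5, SDF2L1, HYOU1 and FICD. HSPA5 went from 800, 721 and 807 CPM to 3123, 4671 and 2845 CPM (log2 fold change 2.20 ± 0.18, adjusted p = 0.000159). SDF2L1 went from 31.4, 35.0 and 49.1 CPM to 129, 190 and 203 CPM (2.18 ± 0.21, adjusted p = 0.000493). HYOU1 changed by 1.66 ± 0.19 and FICD by 1.57 ± 0.14 (adjusted p = 0.00115 and 0.000268). HSP90B1 lay above its vehicle libraries in each thapsigargin library, by 1.04 ± 0.18, and missed the threshold with edgeR (adjusted p = 0.0113). DESeq2, the method of the study, called HSP90B1 (adjusted p = 6.42e-06). SDF2 lay below its vehicle libraries in each thapsigargin library and was not called (-0.44 ± 0.14, adjusted p = 0.0954). The libraries of HSPA13 (0.66 ± 0.22, adjusted p = 0.104) and SIL1 (-0.05 ± 0.18, adjusted p = 0.891) overlapped. Thus 4 of the 8 genes were called higher, against 1.16% of 14607 genes tested. Without replicate 2 of the low-ERN2 vehicle group HYOU1 (adjusted p = 0.0151) and SDF2L1 (adjusted p = 0.0124) were no longer called, whereas without replicate 1 of that group or replicate 3 of the low-ERN2 thapsigargin group HSP90B1 was called as well (adjusted p = 0.00842 and 0.000335).

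With 100 ng/mL doxycycline edgeR called the response for BiP and HYOU1 alone. HSPA5 measured 944, 956 and 844 CPM in vehicle and 1890, 2172 and 2037 CPM in thapsigargin, a 2.30-fold difference (log2 1.20 ± 0.11, adjusted p = 0.00141). HYOU1 measured 318, 389 and 326 CPM in vehicle and 654, 648 and 648 CPM in thapsigargin (log2 0.96 ± 0.12, adjusted p = 0.00835). The FICD libraries overlapped, with 16.6, 21.7 and 15.4 CPM in vehicle against 25.7, 26.5 and 19.6 CPM in thapsigargin (log2 0.47 ± 0.19, adjusted p = 0.152). SDF2L1 (1.30 ± 0.25, adjusted p = 0.0276) and HSP90B1 (0.86 ± 0.18, adjusted p = 0.0324) lay higher in every thapsigargin library and were not called by edgeR. DESeq2 called both (adjusted p = 2.88e-05 and 0.000947), among 728 genes. SDF2 (-0.57 ± 0.17, adjusted p = 0.0901) and SIL1 (-0.46 ± 0.22, adjusted p = 0.205) lay lower in every thapsigargin library and were not called either. The libraries of HSPA13 overlapped (-0.11 ± 0.16, adjusted p = 0.687). The 2 calls compare with 0.180% of 14427 genes tested, and the median over the 8 genes was 0.66 on the log2 scale.

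The calls at 100 ng/mL depended on single libraries. Without thapsigargin replicate 1, the library that stood apart, HSPA5 and HYOU1 were called together with SDF2L1 (1.02, adjusted p = 0.00139), HSP90B1 (1.01, adjusted p = 0.000206) and, in the lower direction, SDF2 (-0.74, adjusted p = 0.00314). That fit called 2568 genes in either direction, against 29 with all libraries. Neither HSPA5 nor HYOU1 was called without vehicle replicate 3 (adjusted p = 0.0225 and 0.0839) or without thapsigargin replicate 2 (adjusted p = 0.0215 and 0.0713), and HYOU1 was not called without vehicle replicate 1 (0.0404), vehicle replicate 2 (0.0128) or thapsigargin replicate 3 (0.0182).

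**Figure D3:**
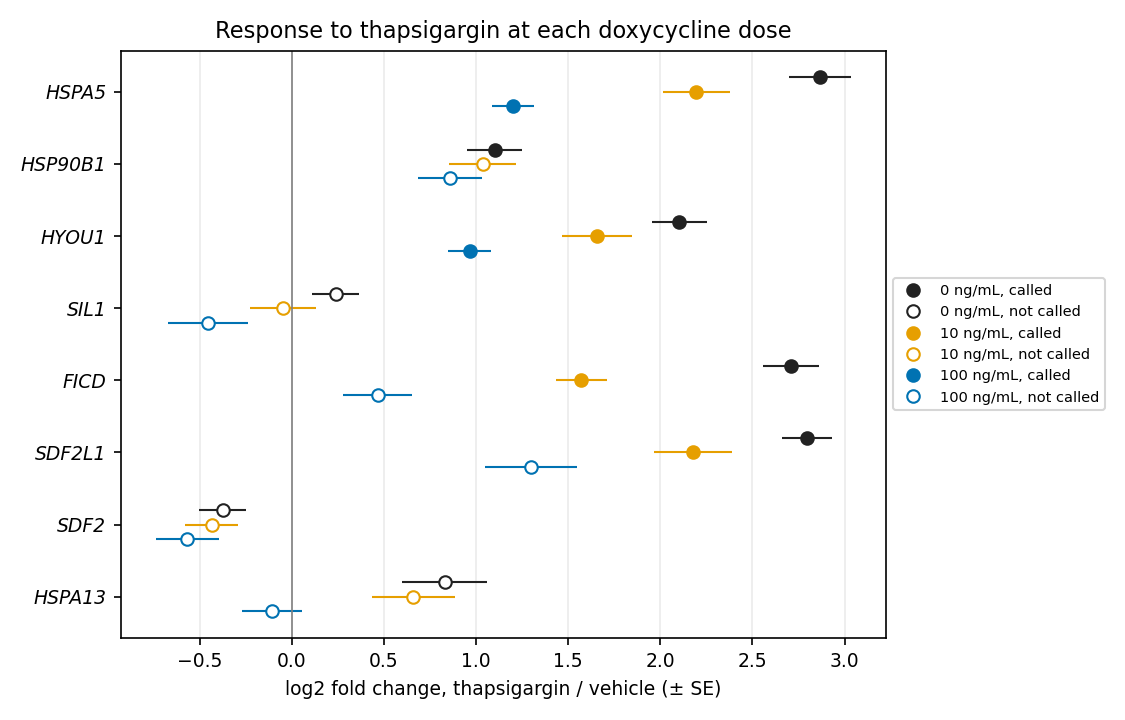
Log2 fold change of thapsigargin over vehicle (horizontal axis, ± SE from the edgeR fit of 3 against 3 libraries) at each doxycycline dose, with filled points for an adjusted p under 0.01. HSPA5 lies at 2.87 without doxycycline, 2.20 with 10 and 1.20 with 100 ng/mL, FICD at 2.71, 1.57 and 0.47 in the same order, and HSP90B1 between 0.86 and 1.10.

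Whether the dose altered the thapsigargin response was tested as a difference of responses in fits of 12 libraries. At 100 ng/mL the response of FICD was smaller by 2.16 ± 0.24 on the log2 scale than at 0 (log2 difference -2.16, adjusted p = 0.00204) and that of HSPA5 by 1.58 ± 0.22 (log2 difference -1.58, adjusted p = 0.00897). These 2 members were among 5 genes called lower, 0.0339% of 14768 tested. HYOU1 (-1.06 ± 0.20, adjusted p = 0.0265) and SDF2L1 (-1.42 ± 0.30, adjusted p = 0.0393) missed the threshold with edgeR. DESeq2 called both (-1.12, adjusted p = 6.23e-05, and -1.48, adjusted p = 0.000595), among 333 genes. HSP90B1 (-0.16 ± 0.27, adjusted p = 0.731) and SDF2 (-0.11 ± 0.20, adjusted p = 0.765) were near 0. HSPA13 (-0.86 ± 0.35, adjusted p = 0.153) and SIL1 (-0.61 ± 0.24, adjusted p = 0.147) were not called either. The FICD call held without any 1 of the 12 libraries. The HSPA5 call did not hold without any 1 of 8 libraries, which were the 3 vehicle libraries at 0 ng/mL, the 3 at 100 ng/mL and thapsigargin replicates 2 and 3 at 100 ng/mL (log2 difference -1.68 to -1.55, adjusted p 0.0120 to 0.0342). Without thapsigargin replicate 1 at 100 ng/mL the difference was also called for HYOU1 (-1.10, adjusted p = 0.00285) and SDF2L1 (-1.73, adjusted p = 0.00164). That fit called 1286 genes in either direction, against 6 with all libraries.

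At 10 ng/mL the same test called none of the 8 genes and none of 14857 genes (0%) with edgeR. At an unadjusted p under 0.05 it gave 3 of the 8 genes and 664 genes, and DESeq2 called 2 genes, 1 of them FICD (-1.13, adjusted p = 0.00106). The edgeR values were -1.13 ± 0.19 for FICD (adjusted p = 0.206), -0.66 ± 0.26 for HSPA5, -0.61 ± 0.26 for SDF2L1 and -0.05 ± 0.26 for HSP90B1. The tests at 10 and 100 ng/mL share the 6 libraries without doxycycline.

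The effect of the dose was then examined within each treatment. In vehicle, 100 ng/mL doxycycline raised HSPA5 from 476, 511 and 544 CPM to 944, 956 and 844 CPM, 1.79-fold (log2 0.84 ± 0.10, adjusted p = 8.68e-05). FICD rose 3.61-fold, from 4.68 to 5.16 CPM to 15.4 to 21.7 CPM (log2 1.85 ± 0.17, adjusted p = 1.15e-05), the largest change of the 8 genes. HSPA13 rose 1.58-fold, from 65.7 to 85.0 CPM to 99.7 to 138 CPM (log2 0.66 ± 0.14, adjusted p = 0.0074). These 3 of 8 genes were called higher, against 0.838% of 14444 genes tested. HSP90B1 was at 1262 to 1493 CPM without and at 1170 to 1511 CPM with 100 ng/mL doxycycline (log2 -0.01 ± 0.12, adjusted p = 0.955). HYOU1 (-0.15 ± 0.11, adjusted p = 0.391), SDF2 (0.13 ± 0.13, adjusted p = 0.538) and SDF2L1 (0.46 ± 0.20, adjusted p = 0.153) were not called either, and the exchange factor SIL1 was lower in every library, at 9.90 to 13.8 against 16.3 to 17.2 CPM (-0.54 ± 0.16, adjusted p = 0.0359).

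The calls of HSPA5 and FICD held without any 1 library. HSPA13 was not called without high-ERN2 replicate 1 (0.51, adjusted p = 0.0168) or 3 (0.69, 0.0180), without uninduced replicate 1 (0.62, 0.0379) or 3 (0.59, 0.0389), with the replicate number as a block (0.66, 0.0391), or when all 6 groups shared 1 fit (adjusted p = 0.116). SIL1 was called lower without high-ERN2 replicate 2 (-0.70, adjusted p = 0.00268).

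At 10 ng/mL in vehicle, FICD was already at 11.1, 11.8 and 13.0 CPM, 2.41-fold above the uninduced libraries (log2 1.27 ± 0.16, adjusted p = 0.00527). It was the only 1 of the 8 called higher, against 0.138% of 14497 genes tested. HSPA5 (0.61 ± 0.10, adjusted p = 0.014), SDF2L1 (0.82 ± 0.17, adjusted p = 0.0519) and HYOU1 (0.39 ± 0.10, adjusted p = 0.0771) lay above the uninduced libraries in every low-ERN2 library without passing the edgeR test. So did SIL1 (0.18 ± 0.13, adjusted p = 0.352), in a comparison where 4421 genes had an unadjusted p under 0.05. DESeq2 called HSPA5 (adjusted p = 3.39e-05) and SDF2L1 (adjusted p = 0.00102) as well, among 354 genes. HSPA13 (0.31 ± 0.15, adjusted p = 0.173), SDF2 (0.24 ± 0.13, adjusted p = 0.218) and HSP90B1 (-0.01 ± 0.12, adjusted p = 0.945) overlapped. The FICD call was lost without uninduced replicate 1 (1.23, adjusted p = 0.0481), 2 (1.28, 0.0145) or 3 (1.30, 0.0282) or low-ERN2 replicate 2 (1.28, 0.0240), and without low-ERN2 replicate 1 HSPA5, SDF2L1 and HYOU1 were called too (adjusted p = 0.000876, 0.000849 and 0.00490). The fit without low-ERN2 replicate 1 called 2743 genes in either direction, against 28 with all libraries.

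Between 100 and 10 ng/mL in vehicle edgeR called 0 of the 8 genes, against 2.45% of 14549 genes in either direction. At an unadjusted p under 0.05 it gave 2344 genes and 4 of the 8, HYOU1 (-0.52 ± 0.11), SIL1 (-0.71 ± 0.15), FICD (0.60 ± 0.16) and HSPA5 (0.25 ± 0.10), and DESeq2 called HYOU1 and SIL1 (adjusted p = 0.00424 and 0.00219). HYOU1 was at 473, 554 and 468 CPM at 10 ng/mL and at 318, 389 and 326 CPM at 100 ng/mL. SIL1 was at 18.6, 19.6 and 18.4 CPM at 10 ng/mL and at 9.90, 13.8 and 10.5 CPM at 100 ng/mL. In both genes the 100 ng/mL libraries lay below all libraries at 10 ng/mL, while in FICD and HSPA5 they lay above all of them. SIL1 was called without high-ERN2 vehicle replicate 2 (-0.85, adjusted p = 0.00784).

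In thapsigargin, all calls among the 8 genes between 100 and 0 ng/mL were in the lower direction. HYOU1 fell with 100 ng/mL doxycycline from 1364, 2060 and 1450 CPM to 654, 648 and 648 CPM (log2 -1.26 ± 0.16, adjusted p = 0.000159). SIL1 fell from 18.3, 20.9 and 19.2 CPM to 8.25, 9.81 and 6.22 CPM (-1.21 ± 0.21, adjusted p = 0.00121). SDF2L1 fell from 131, 162 and 159 CPM to 96.0, 59.1 and 59.3 CPM (-1.01 ± 0.19, adjusted p = 0.00226). HSPA5 fell from 3148, 4829 and 3085 CPM to 1890, 2172 and 2037 CPM (-0.80 ± 0.18, adjusted p = 0.00688). Thus both exchange factors, SDF2L1 and BiP were lower in all 3 high-ERN2 libraries, 4 of 8 genes called lower against 9.00% of 14358 genes tested. FICD was also lower in all 3 high-ERN2 libraries, at 19.6 to 26.5 against 29.6 to 37.0 CPM, and was not called (-0.37 ± 0.18, adjusted p = 0.168). HSP90B1 (-0.23 ± 0.20, adjusted p = 0.442), HSPA13 (-0.25 ± 0.25, adjusted p = 0.514) and SDF2 (-0.03 ± 0.17, adjusted p = 0.912) overlapped and were not called.

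HSPA5 was not called without thapsigargin replicate 2 at 0 ng/mL, its highest library (-0.54, adjusted p = 0.0263), or without high-ERN2 replicate 2 (-0.85, 0.0231) or 3 (-0.80, 0.0192). SDF2L1 was not called without those same replicates 2 (-0.95 and adjusted p = 0.0120, -0.90 and adjusted p = 0.0209), while HYOU1 and SIL1 held throughout. Without high-ERN2 replicate 1 all 4 were called, SDF2L1 at -1.26.

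**Figure D4:**
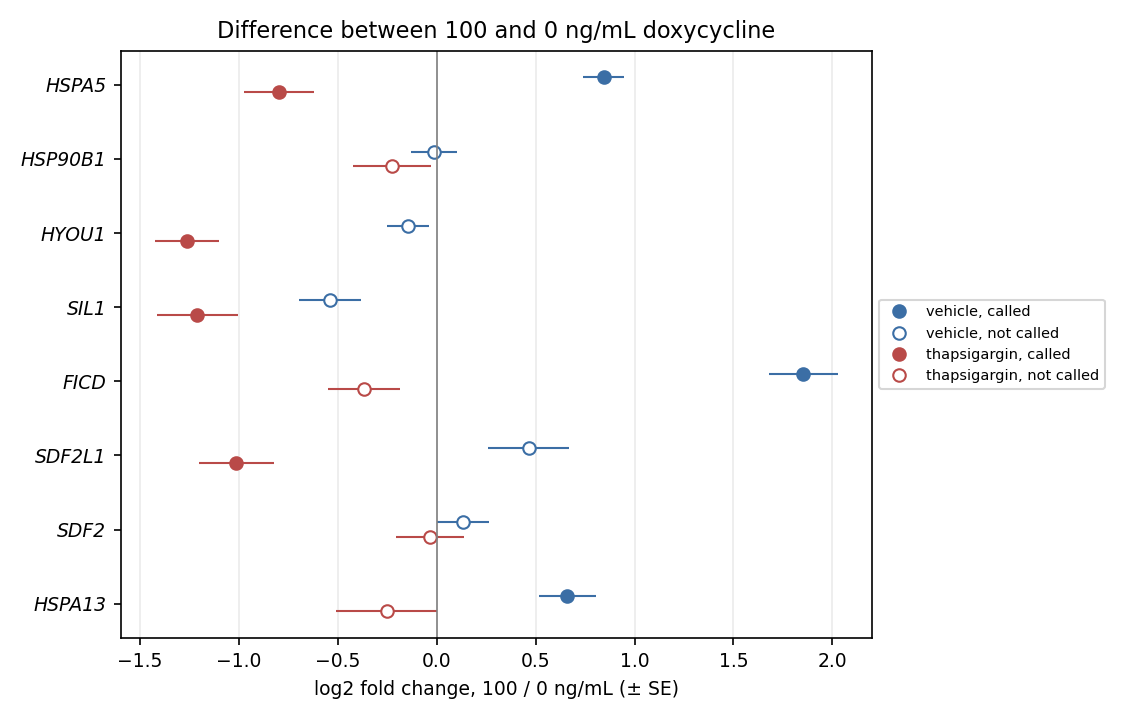
Log2 fold change of 100 over 0 ng/mL doxycycline (horizontal axis, ± SE, 3 against 3 libraries) in vehicle (blue) and in thapsigargin (red), with filled points for an adjusted p under 0.01. HSPA5 lies at 0.84 in vehicle and at -0.80 in thapsigargin, HYOU1 and SIL1 lie below 0 in both, and HSP90B1 lies near 0 in vehicle and at -0.23 in thapsigargin.

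Between 100 and 10 ng/mL in thapsigargin, SDF2L1 (-1.23 ± 0.22, adjusted p = 0.0032), HYOU1 (-1.21 ± 0.18, adjusted p = 0.0013) and SIL1 (-1.12 ± 0.24, adjusted p = 0.00873) were called lower, 3 of 8 against 5.32% of 14493 genes, and HSPA5 missed the threshold with edgeR (-0.74 ± 0.18, adjusted p = 0.0166) but not with DESeq2 (adjusted p = 0.00346). All 3 calls were lost without high-ERN2 replicate 2 (adjusted p = 0.0182 for HYOU1, 0.0324 for SIL1 and 0.0384 for SDF2L1). SIL1 and SDF2L1 were also lost without high-ERN2 replicate 3 (0.0309 and 0.0113), low-ERN2 replicate 2 (0.0898 and 0.0240) or low-ERN2 replicate 3 (0.0102 and 0.0110), SIL1 without low-ERN2 replicate 1 (0.0258), and HSPA5 was called without low-ERN2 replicate 3 (0.00688). Without high-ERN2 replicate 1 the same 3 genes were called, SDF2L1 at -1.45 (adjusted p = 0.000241).

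Between 10 and 0 ng/mL in thapsigargin edgeR called 0 of the 8 genes and 0 of 14509 genes (0%). None of the 8 had an unadjusted p under 0.05, 612 genes did, and DESeq2 called 37 genes, with none of the 8 among them. Same-numbered libraries deviated together in this comparison, and with the replicate number as a block 564 genes (3.89%) were called, again with none of the 8 among them, SDF2L1 (0.19, adjusted p = 0.0725) and HSPA13 (0.17, adjusted p = 0.0838) coming closest. The libraries of all 8 genes overlapped between these doses, and their log2 differences ran from -0.10 for SIL1 to 0.21 for SDF2L1. BiP was at 3148, 4829 and 3085 CPM without and at 3123, 4671 and 2845 CPM with 10 ng/mL doxycycline.

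Ratios of counts within a library, which do not depend on the scaling between libraries, set related members against each other. For SDF2L1 to SDF2 the ratio was 0.606 to 0.694 in uninduced vehicle and 5.42 to 6.62 in uninduced thapsigargin libraries. These counts are not scaled by length. Per kb of exon SDF2L1 already stood above SDF2 in uninduced vehicle, at 19.9 against 10.1 CPM per kb. Over all doses thapsigargin raised the ratio of SDF2L1 to SDF2 counts 5.89-fold (log2 2.56). The ratio of the exchange factors HYOU1 to SIL1 rose 3.16-fold (log2 1.66), from 21.4 to 24.3 to 74.4 to 98.3 in uninduced cells, and that of the HSP70 proteins HSPA5 to HSPA13 rose 3.12-fold (log2 1.64). Each of these 3 differences had an adjusted p of 0.000833 (exact permutation test within doses, 9 libraries against 9, two-sided, 8000 arrangements, 10 tests, unadjusted p = 0.00025, the smallest the design allows).

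BiP gained on GRP94 to an extent that differed by dose. The ratio of HSPA5 to HSP90B1 counts was 0.342 to 0.411 in uninduced vehicle libraries and 1.16 to 1.33 in uninduced thapsigargin libraries, and rose 2.12-fold over all doses (log2 1.09, adjusted p = 0.001, same exact permutation test). By dose the log2 rise was 1.75 at 0, 1.15 at 10 and 0.36 at 100 ng/mL, and at 100 ng/mL the libraries overlapped, at 0.620 to 0.818 in vehicle and 0.743 to 1.07 in thapsigargin. Over all doses the ratio of HSPA5 to FICD changed least, 1.40-fold (log2 0.49, adjusted p = 0.001, exact permutation test), and without doxycycline it was 101 to 105 in vehicle and 102 to 130 in thapsigargin libraries. By dose its log2 rise was 0.14 at 0 ng/mL, where the libraries overlapped. It was 0.59 at 10 and 0.73 at 100 ng/mL, where they did not.

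Averaged over both treatments, only the ratio of HSPA5 to FICD passed the test for the dose. It fell from 101 to 105 without doxycycline to 60.9 to 72.1 at 10 ng/mL and 44.0 to 56.9 at 100 ng/mL in vehicle. Between 100 and 0 ng/mL over both treatments the log2 difference was -0.69 (adjusted p = 0.0167, exact permutation test within treatments, 400 arrangements, smallest p 0.005). The other ratios differed by -0.35 for SDF2L1 to SDF2, -0.21 for HSPA5 to HSPA13, 0.16 for HSPA5 to HSP90B1 and 0.20 for HYOU1 to SIL1 on the log2 scale, with adjusted p from 0.193 to 0.545 in the same exact permutation test.

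The average of HSPA5 to HSP90B1 joined dose effects of opposite sign. The ratio of HSPA5 to HSP90B1 was higher at 100 than at 0 ng/mL in vehicle (0.620 to 0.818 against 0.342 to 0.411, log2 0.86 ± 0.15 with SE) and lower in thapsigargin (0.743 to 1.07 against 1.16 to 1.33, log2 -0.54 ± 0.17), with no overlap in either treatment. The ratio of SDF2L1 to SDF2 was 2.76 to 3.27 against 5.42 to 6.62 in thapsigargin (-0.998 ± 0.12) and overlapped in vehicle (0.29 ± 0.18). That of HSPA5 to HSPA13 likewise was lower in every high-ERN2 thapsigargin library (-0.60 ± 0.18) and overlapped in vehicle (0.19 ± 0.20). HYOU1 to SIL1 went from 21.4 to 24.3 without to 28.1 to 32.1 with 100 ng/mL in vehicle (0.41 ± 0.08) and overlapped in thapsigargin (-0.01 ± 0.23), and HSPA5 to FICD differed by -0.99 ± 0.12 in vehicle and overlapped in thapsigargin (-0.40 ± 0.18).

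The dose effect in thapsigargin minus that in vehicle was -1.40 for HSPA5 to HSP90B1 and -1.29 for SDF2L1 to SDF2 (both adjusted p = 0.025, exact permutation of the doses within each treatment, two-sided, 400 arrangements, 5 tests added after the values were seen). For HSPA5 to HSPA13 it was -0.79 (adjusted p = 0.0417, same exact permutation test), and for HYOU1 to SIL1 (-0.42) and HSPA5 to FICD (0.59) it did not pass (adjusted p = 0.2 and 0.22, same exact permutation test). The HSPA5 to HSP90B1 call held without any 1 of 12 libraries, that of SDF2L1 to SDF2 was lost without uninduced vehicle replicate 2 (-1.24, adjusted p = 0.0625, exact permutation), and that of HSPA5 to HSPA13 was lost without any 1 of 10 libraries (adjusted p up to 0.0917, exact permutation), the exceptions being high-ERN2 vehicle replicate 1 and uninduced vehicle replicate 3.

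**Figure D5:**
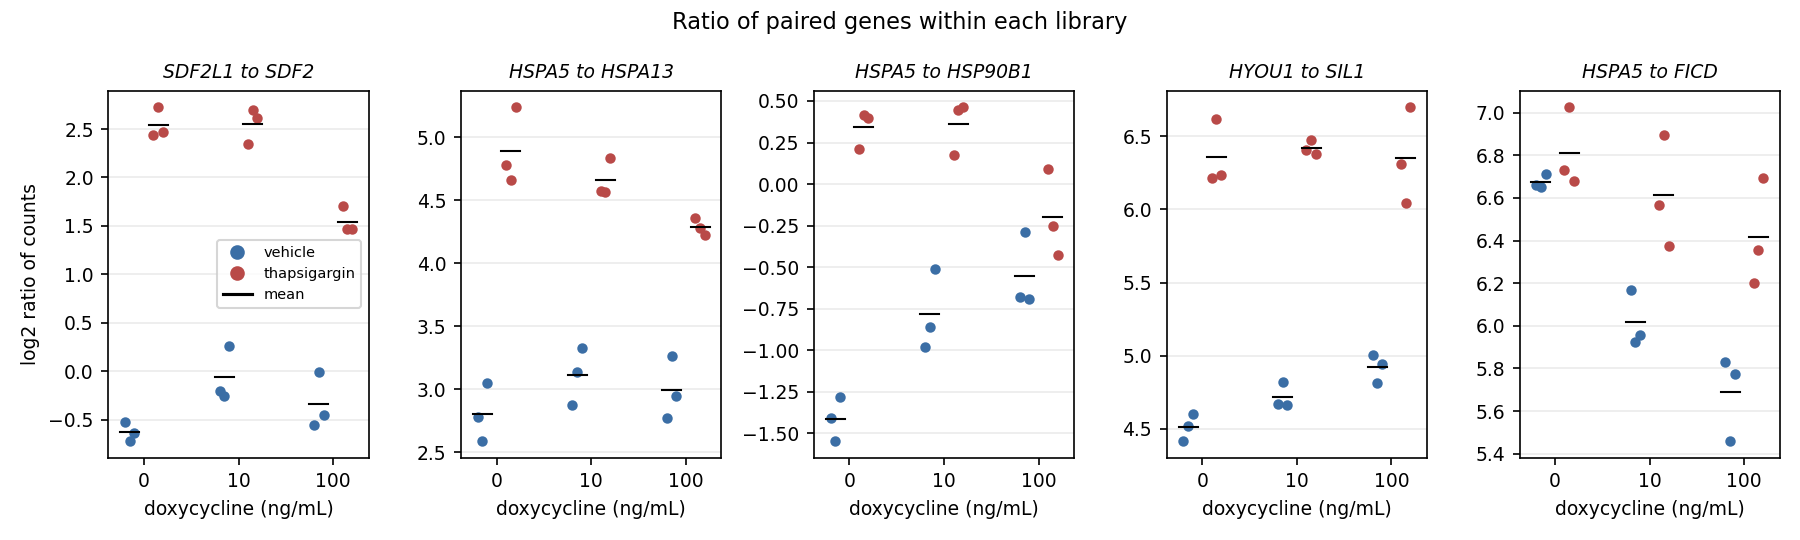
Log2 ratio of the counts of paired genes within each library by doxycycline dose, with vehicle libraries in blue, thapsigargin libraries in red and black bars for the mean of 3. Thapsigargin raises SDF2L1 to SDF2, HSPA5 to HSPA13 and HYOU1 to SIL1 at every dose, and HSPA5 to FICD falls with the dose in vehicle from a mean of 6.67 to 5.69.

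The genes whose profile over the 18 libraries lay closest to that of HSPA5 were found by the root mean square difference of log2 CPM (1 added to each CPM), each gene centred on its uninduced vehicle mean, over 13563 genes. They were DERL3, an ER-associated degradation factor (0.251), DDIT4, an inhibitor of mTORC1 (0.347), XBP1 (0.356), MANF, an ER-resident factor that binds BiP (0.375), and TRIB3, a target of the ATF4 pathway (0.377). Among the 8 genes SDF2L1 came nearest to HSPA5, at rank 6 (0.398), then FICD at rank 11 (0.450) and HYOU1 at rank 38 (0.790). HSP90B1 ranked 169, HSPA13 248, SIL1 9874 and SDF2 10602. For FICD the closest were DERL3 (0.323), DNAJB9, a J-domain protein that represses IRE1 through BiP (0.352), CDK2AP2 (0.381), CCDC163P (0.415) and XBP1 (0.427), and HSPA5 ranked 7. This likeness is a description over libraries that share the design, and it carries no test. The added 1 lessens the changes of genes at low CPM, FICD among them, so that their distances and ranks depend on it.

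Of 16 further ER proteins that work with BiP or GRP94 (J-domain proteins, PDIA4, PDIA6, P4HB, PPIB, UGGT1, MANF, CDNF and the GRP94-associated CNPY proteins), thapsigargin in uninduced cells raised 7, against 6.45% of all genes, with a median log2 fold change of 0.45. The largest were DNAJB9 (2.72, adjusted p = 8.87e-07), MANF (2.18, adjusted p = 6.76e-07) and the disulfide isomerase PDIA4 (2.06, adjusted p = 1.23e-06). At 10 ng/mL 4 of 16 rose (median 0.35), against 1.16% of all genes, with 0 without low-ERN2 vehicle replicate 2 and 2 without low-ERN2 thapsigargin replicate 2. At 100 ng/mL MANF alone rose (0.93, adjusted p = 0.00969, median 0.19), against 0.180% of all genes. Without high-ERN2 thapsigargin replicate 1, 5 of 16 were higher and 2 lower there, in a fit that called 2568 genes in either direction, against 29 with all libraries. Without any other 1 library MANF was not called (adjusted p 0.0243 to 0.106). In vehicle, 100 ng/mL doxycycline raised DNAJB9 (2.07), MANF (0.94) and PDIA4 (0.53) and lowered CNPY2 (-1.49), the J-domain protein DNAJC1 (-1.05) and the translocon-associated J-domain protein SEC63 (-0.63), all with an adjusted p under 0.01, in a comparison that lowered 1082 of 14444 genes. In thapsigargin 9 of 16 were lower at 100 than at 0 ng/mL (median -0.75), against 9.00% of all genes, CNPY2 (-1.98), DNAJC3 (-1.48) and DNAJC1 (-1.37) the most, with 10 without high-ERN2 replicate 1 and 5 without high-ERN2 replicate 2. Those 2 fits called 3950 and 763 genes in either direction, against 1512 with all libraries. The thapsigargin response at 100 ng/mL was called smaller for PDIA4 (-1.40, adjusted p = 0.00897), against 0.0339% of all genes. Without high-ERN2 thapsigargin replicate 1 it was called smaller for 6 of 16, PDIA4 among them (-1.48, adjusted p = 0.00094), in a fit that called 1286 genes in either direction, against 6 with all libraries. The PDIA4 call was lost without any 1 of the same 8 libraries as that of HSPA5 (adjusted p 0.0116 to 0.045).

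The 6 regulators of these genes bear on the same comparisons. In uninduced cells thapsigargin raised DDIT3 (3.96), XBP1 (2.66), EIF2AK3 (1.51), ATF4 (1.28) and ERN1 (1.06), with ATF6 at 0.08 (adjusted p = 0.760). XBP1 was at 76.7, 79.1 and 78.3 CPM in uninduced vehicle and at 471, 500 and 492 CPM in uninduced thapsigargin libraries. With 100 ng/mL doxycycline it was at 164, 166 and 148 CPM in vehicle and at 218, 193 and 216 CPM in thapsigargin. Its response was smaller by 2.14 ± 0.13 on the log2 scale at 100 than at 0 ng/mL (log2 difference -2.14, adjusted p = 1.2e-06). That of DDIT3 differed by -1.32 ± 0.19 (adjusted p = 0.0101) and was not called, except without high-ERN2 thapsigargin replicate 1 (-1.52, adjusted p = 0.000449). Gene counts do not separate spliced from unspliced XBP1, and they do not measure the activity of the proteins of these 6 genes.

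Several members share exonic bases with other genes, and whether the counting used strand is not given in the sources used here. HYOU1 shares 666 exonic bases with the antisense gene AP003392.3, SDF2 99 with SUPT6H and 427 with the pseudogene RPS12P28, SIL1 149 with the antisense gene AC011405.1, 118 with SNHG4 and 105 with MATR3, HSP90B1 121 with C12orf73 and 105 with TTC41P, and FICD 21 with SART3, all on the opposite strand. HSP90B1 also holds the miRNA gene MIR3652 on its own strand (131 bases). Reads of HSP90B1 could further be shared with its pseudogene HSP90B2P, which had 40 to 138 reads per library, against at least 22813 for HSP90B1. HSPA5 shares no exon with another annotated gene, and neither do HSPA13 and SDF2L1.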

How the data were processed

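RNA-Seq was performed on 18 libraries of HEK293doxERN2 cells, 3 in each of 6 groups. Per the labels and the methods, libraries were made with a stranded mRNA kit, single-end reads were aligned with STAR, and the deposited values are raw counts of reads per gene that the authors made on hg38 (build and tools from the submitters' processing notes). The versions, annotation and strand setting of the counting are not given in the sources used here. Columns were assigned to samples by the column number in each label, and 0 value columns were unused. 28 rows carry a date in place of a symbol and were kept unnamed.

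Counts were tested with edgeR 4.0.16 (R 4.3.3), using the quasi-likelihood test, filterByExpr with a minimum count of 10 and TMM scaling. Each fit held only the groups compared (12 libraries for differences of responses), p-values were adjusted by the Benjamini-Hochberg method over all genes tested, and a call needed an adjusted p under 0.01, the limit that the study used with DESeq2. SE was derived from each log2 fold change and its F statistic (their ratio after the root of F was taken). CPM use TMM-scaled library totals, and CPM per kb divide by merged exon length in GENCODE 29. Depth was 14876416 to 24652240 reads per library, and with 3 replicates the spread between them limits the precision. Ratios of 2 genes (0.5 added to each count) were compared by exact permutation within strata at an adjusted p under 0.05; an exact test of 3 against 3 alone cannot go below 0.10. The labels do not say that replicates came from separate cultures, so p-values measure the spread between these libraries, which may be technical. No 2 replicates agreed within counting noise.

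Alternatives were DESeq2 1.42.0, DESeq2-type size factors (RLE) in edgeR, no filter on low counts, 1 fit over all 6 groups, a block for the replicate number, a looser threshold (adjusted p under 0.05), 5 reads added before ratios, and each library left out. Dose effects on ratios within treatments and the other gene lists with a library left out were added after the data were seen. The scripts were tested on simulated data. All 8 members were tested in every comparison, and not every member without a call is named in the text. Named beside them are at most 3 called genes of each list by size of change, the 6 regulators, and the 5 genes closest in profile to HSPA5 and to FICD. Overlap of libraries between groups was examined for the members and their ratios alone, without a share over all genes. The members and gene lists were chosen with earlier results of these data known. Promoter sequences are from RefSeq (GRCh38.p14), and all 8 members matched by symbol.

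Replicate numbers recur in every group. Deviations of same-numbered libraries from their group means correlated above 0.1 for all 3 numbers in 1 of 9 comparisons (10 against 0 ng/mL in thapsigargin, 0.57, 0.51 and 0.65), and nothing in the labels says what a number shares.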

Additional observations from a re-analysis of the deposited data

Results flagged for a closer look

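The difference of the thapsigargin response between 100 and 0 ng/mL doxycycline was itself past the edgeR test for 2 of the 8 genes (4 with DESeq2), so that the same thapsigargin treatment differed in its effect between these doses. For FICD the log2 difference was -2.16 ± 0.24 (SE, edgeR adjusted p = 0.00204), from a response of 2.71 without and 0.47 with doxycycline. For HSPA5 the log2 difference was -1.58 ± 0.22 (adjusted p = 0.00897), from 2.87 and 1.20. The FICD call held without any 1 of 12 libraries, and the HSPA5 call was lost without any 1 of 8 of them (adjusted p up to 0.0342) and with the replicate number as a block (-1.57, adjusted p = 0.015).

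The effect of 100 against 0 ng/mL doxycycline on 3 ratios of counts also differed between thapsigargin and vehicle, by -1.40 for HSPA5 to HSP90B1, -1.29 for SDF2L1 to SDF2 and -0.79 for HSPA5 to HSPA13 on the log2 scale (adjusted p = 0.025, 0.025 and 0.0417, exact permutation of doses within treatments, 12 libraries). These tests were added after the values had been seen. Groups of 3 libraries were too small for the formal test of an outlying value, and the high-ERN2 thapsigargin library that stood apart by counting noise is named beside the results it changed.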

How the results depend on the processing

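Which of the 8 genes were called depended on the processing more than the size of their changes did. RLE scaling ended 1 member call (SIL1 between 100 and 10 ng/mL in thapsigargin, adjusted p = 0.0117), 5 reads added before the ratios ended no call of a ratio, leaving out 1 library ended none of a ratio averaged over doses or treatments, and no alternative other than leaving out a library reversed a direction. In thapsigargin against vehicle at 10 ng/mL, where 4 were called, the replicate block gave 7 and leaving out single libraries 2 to 5, with 2 without low-ERN2 vehicle replicate 2. At 100 ng/mL, where 2 were called, DESeq2, no filter and an adjusted p of 0.05 each gave 4, all 6 groups in 1 fit gave 5, the block 0, and single libraries left out 0 to 5, with 5 without thapsigargin replicate 1 and 0 without vehicle replicate 3 or thapsigargin replicate 2. For 10 against 0 ng/mL in vehicle (1 called), DESeq2, no filter and the block each gave 3, an adjusted p of 0.05 gave 2 and left-out libraries 0 to 4. For 100 against 10 ng/mL in vehicle (0 called), DESeq2 and an adjusted p of 0.05 gave 2, no filter 1, the block 3 and left-out libraries 0 to 1. For 100 against 0 ng/mL in thapsigargin (4 called), left-out libraries gave 2 to 4. For 100 against 10 ng/mL in thapsigargin (3 called), all 6 groups in 1 fit gave 5, the block 1 and left-out libraries 0 to 3. The difference of responses at 10 ng/mL (0 called) gave 1 with DESeq2, and that at 100 ng/mL (2 called) gave 4 with DESeq2, no filter or an adjusted p of 0.05, 1 with the block, which ended the HSPA5 call (-1.57, adjusted p = 0.015), and 1 to 4 with left-out libraries. The cause of these shifts was not tested, except that an adjusted p of 0.05 is a looser limit and a left-out library means fewer samples. Of the 24 calls of members, 12 held without any 1 library.

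Nothing in the labels says what same-numbered replicates share, and apart from the counts above the replicate block left each member count within 1.5 times. It left the log2 ratio of HSPA5 to FICD between doses at -0.69 with an adjusted p of 0.104. Differences between treatments in the dose effect on a ratio kept their values under the block, -1.29 for SDF2L1 to SDF2, -0.79 for HSPA5 to HSPA13 and -1.40 for HSPA5 to HSP90B1, and did not pass the test there (adjusted p = 0.156, 0.208 and 0.156, exact sign permutation). With single libraries left out they ran from -1.40 to -1.13, from -0.91 to -0.62 and from -1.54 to -1.27. In the 1 comparison whose same-numbered libraries all deviated together, 10 against 0 ng/mL in thapsigargin, the block called 0 of the 8 genes, as the fit without it did, and 564 genes in place of 0.

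Counts over all genes, in either direction, moved more. Over these alternatives the thapsigargin comparisons called 731 to 3571 genes at 0 ng/mL (reported 1611), 28 to 3620 at 10 ng/mL (212) and 4 to 2568 at 100 ng/mL (29). In vehicle, 10 against 0 ng/mL called 0 to 2743 (28), 100 against 0 called 750 to 2063 (1203) and 100 against 10 called 0 to 1224 (356). In thapsigargin the same contrasts called 0 to 564 (0), 763 to 3950 (1512) and 42 to 2712 (805). The differences of responses called 0 to 2 genes at 10 ng/mL (0) and 2 to 1286 at 100 ng/mL (6). The highest counts at 100 ng/mL in thapsigargin against vehicle (2568), in thapsigargin against 0 and 10 ng/mL (3950 and 2712) and in the difference of responses (1286) came without high-ERN2 thapsigargin replicate 1, and that of 10 against 0 ng/mL in vehicle (2743) without low-ERN2 vehicle replicate 1.

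Leaving out single libraries turned the sign of some differences that were not called in any of these fits. In thapsigargin against vehicle the log2 fold change of SIL1 ran from -0.29 to 0.065 at 10 ng/mL and that of HSPA13 from -0.22 to 0.044 at 100 ng/mL. HSP90B1 ran from -0.14 to 0.086 for 10 against 0, -0.10 to 0.088 for 100 against 0 and -0.10 to 0.16 for 100 against 10 ng/mL in vehicle, and from -0.31 to 0.053 for 100 against 10 ng/mL in thapsigargin. For 10 against 0 ng/mL in thapsigargin HSPA5 ran from -0.29 to 0.19, HSPA13 from -0.15 to 0.54, HYOU1 from -0.31 to 0.16, SIL1 from -0.32 to 0.020 and HSP90B1 from -0.25 to 0.13. For 100 against 0 ng/mL in thapsigargin HSPA13 ran from -0.51 to 0.16 and SDF2 from -0.18 to 0.037. The difference of responses at 10 ng/mL ran from -0.46 to 0.24 for HSPA13, -0.15 to 0.045 for SDF2 and -0.24 to 0.14 for HSP90B1.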

Other observations

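Some genes of HSP70 and HSP90 proteins and exchange factors outside the ER were lowered by thapsigargin. In the other comparison where BiP was called higher, 100 against 0 ng/mL doxycycline in vehicle, 0 of the 17 tested were called in either direction (median 0.045). Of 19 such genes on the list, 17 passed the filter on low counts, and in uninduced cells thapsigargin lowered 6 of them (edgeR, adjusted p under 0.01, against 682 of 14397 genes lowered), with a median log2 fold change of -0.36. HSPA8, the constitutive cytosolic HSP70, was at 1507, 1736 and 1853 CPM in vehicle and at 441, 333 and 504 CPM in thapsigargin (log2 -1.99 ± 0.14, adjusted p = 1.39e-06). HSPA1B (-2.16, adjusted p = 4.01e-07) and HSPA1L (-1.89, adjusted p = 0.000406) also fell. HSPA1A and HSPA1B are nearly identical copies, and the division of reads between them is uncertain. At 10 ng/mL 4 of 17 were lowered (median -0.11), against 43 of 14607 genes, with 1 without low-ERN2 vehicle replicate 2 and 2 without low-ERN2 thapsigargin replicate 2. At 100 ng/mL HSPA8 alone was lowered (-0.86, adjusted p = 0.00889, median 0.02). Without high-ERN2 thapsigargin replicate 1, 4 were lowered and 4 raised there (median -0.054), in a fit that called 2568 genes in either direction, against 29 with all libraries. Without any other 1 library HSPA8 was not called (adjusted p 0.0249 to 0.0961). In thapsigargin, 5 of 17 were higher at 100 than at 0 ng/mL doxycycline (median 0.59), against 220 of 14358 genes, with HSPA1L at 1.53, HSPA1B at 1.37 and HSPA1A at 1.17 (adjusted p = 0.00758, 7.33e-05 and 0.00118). That count was 10 without high-ERN2 replicate 1, 2 without high-ERN2 replicate 2, and 3 without uninduced replicate 1 or 2. The fit without high-ERN2 replicate 1 called 3950 genes in either direction, against 1512 with all libraries. HSPA8 at 100 ng/mL in thapsigargin stood at 822, 943 and 866 CPM. The list was chosen with earlier results of these data known, and nothing was tested about the list as a whole.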
